A study of Mus musculus with 9 samples.

Results

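The genes described here are 8 genes of prostaglandin synthesis, breakdown and reception, namely Ptgs1, Ptgs2, Pla2g4a, Ptger2, Ptger4, Ptgis, Ptgds and Hpgd. They were taken as every probe set whose gene symbol in the array annotation is one of these names. That rule found 9 probe sets for 7 of the 8 genes, out of 8251 genes named on the array, and Ptgs1 was not analysed here. Of the 9 probe sets, 7 for 5 genes lay above the intensity floor used as a limit of measurement and were tested, while the single probe sets of Ptger2 and Hpgd lay below it on all 9 arrays. The set was chosen by earlier results of these arrays, among them the intensity difference of Ptgs2 between the cell lines. The line differences of these genes are therefore given as a description with no test, and their tests concern serum withdrawal. Line tests are given for Rb1 and other genes outside the set. The gene lists were also chosen with earlier results of these data known, and the p-values do not account for that choice.

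The study measured total RNA of mouse prostate epithelial cell lines on single-channel arrays, with 1 value per probe set and array. The Rb-null line, labelled Rb-/-PrE, was kept without fetal bovine serum for 48 hours (2 arrays) or grown with 5% fetal bovine serum (2 arrays). The wild-type line, labelled wtPrE, was kept without serum for the same time (2 arrays) or grown with 5% serum (3 arrays), and all cells were in RPMI-1640 medium. According to the labels there was 1 line per genotype, and nothing states that the arrays of a group were from different cultures. Each line difference is thus a difference between these lines, and the p-values measure only the spread between arrays, which may be technical.

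Prostaglandins are lipid signals made from arachidonic acid. Cytosolic phospholipase A2, encoded by Pla2g4a, frees arachidonic acid from membranes, and the cyclooxygenases encoded by Ptgs1 and Ptgs2 turn it into prostaglandin H2. Terminal synthases then make the single prostanoids: Ptgis encodes the prostacyclin synthase and Ptgds the lipocalin-type prostaglandin D synthase. Ptger2 and Ptger4 encode receptors for prostaglandin E2 that raise cyclic AMP, and Hpgd encodes the dehydrogenase that inactivates prostaglandins. Ptgs2 is the inducible cyclooxygenase, a gene switched on by growth factors and inflammatory cytokines in epithelial cells.

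Deposited intensities had medians of 445 to 474 across the arrays. Their upper quartiles separated the lines, at 1119 to 1153 on Rb-null arrays and 991 to 1088 on wild-type arrays. Quantile normalization between arrays removes this difference, so the line differences depend on it. The array wild-type serum 1 stood apart, with Spearman correlations over all probe sets of 0.986 and 0.983 to the other wild-type serum arrays, which correlated at 0.997 with each other. Values without it are given for the prostaglandin genes and for the counts over gene lists. The targeted gene Rb1, which encodes the retinoblastoma protein, had 166 and 160.3 in Rb-null serum-free cells and 113 and 112 in Rb-null serum cells, all below the floor of 197. Wild-type arrays read 383 and 361 without serum and 713, 406 and 369 in serum. The averaged log2 difference was -1.10 (SE 0.17, limma adjusted p = 0.000923), which is a bound because the Rb-null values sat at the floor. The sources used here do not place the probe set relative to the deleted part of the gene.

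Of 11 named marker genes of prostate epithelium, 10 were above the floor on every array, and Pbsn, the probasin gene of differentiated luminal cells, was below it. Among markers of other cells, 5 of 8 leukocyte, 6 of 7 fibroblast, 2 of 5 smooth muscle and 2 of 4 endothelial genes were above the floor on every array. Ptprc and Lyz2 (leukocyte), Acta2, Myh11 and Cnn1 (smooth muscle), Lum (fibroblast) and Tek (endothelium) were below it on every array. Above it on every array were Cd68, Csf1r, Adgre1, Cd14 and Itgam (leukocyte) and Col1a1, Col1a2, Col3a1, Pdgfra, Dcn and Thy1 (fibroblast). So were Tagln and Des (smooth muscle) and Pecam1 and Kdr (endothelium), so the markers do not show that other cell types were absent. Summed leukocyte marker intensity was 2983 to 2986 in Rb-null serum-free cells, 3061 to 3179.8 in Rb-null serum cells, 3264 to 3397 in wild-type serum-free cells and 2666 to 3097 in wild-type serum cells. Summed fibroblast intensity was 3341 to 3546 in Rb-null serum-free cells, 3479 to 3592 in Rb-null serum cells, 4123 to 4183 in wild-type serum-free cells and 3247 to 4243 in wild-type serum cells. Summed smooth muscle intensity was 1317 to 1381 in Rb-null serum-free cells, 1326 to 1341 in Rb-null serum cells, 1628 to 1783 in wild-type serum-free cells and 1315 to 1675 in wild-type serum cells. Summed endothelial intensity was 1295 to 1368 in Rb-null serum-free cells, 1413 to 1426 in Rb-null serum cells, 1570.2 to 1653 in wild-type serum-free cells and 1466 to 1795 in wild-type serum cells, so it was lower on every Rb-null array. Their part in the results was not tested.

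The genes that differed most between the lines were Ptgs2 and Pla2g4a, which encode the enzymes that oxidise and free arachidonic acid, and their promoters are shown for that reason. RefSeq's table for GRCm38.p6 had an entry for 7 of the 8 genes. Both promoters lie on chromosome 1, at chr1:150099781-150100080 on the plus strand for Ptgs2 and chr1:149961241-149961540 on the minus strand for Pla2g4a. Each covers 250 bases before and 50 bases from the annotated start of transcription, written 5′ to 3′ on the gene's strand. Pla2g4a had 2 entries, of which the more upstream is shown. Capitals mark the motifs found.
Ptgs2: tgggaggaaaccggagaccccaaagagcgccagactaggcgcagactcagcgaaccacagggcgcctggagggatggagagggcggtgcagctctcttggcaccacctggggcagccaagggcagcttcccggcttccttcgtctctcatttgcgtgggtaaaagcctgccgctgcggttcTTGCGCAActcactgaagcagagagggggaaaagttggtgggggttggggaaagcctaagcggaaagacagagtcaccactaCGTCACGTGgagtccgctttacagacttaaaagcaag
Pla2g4a: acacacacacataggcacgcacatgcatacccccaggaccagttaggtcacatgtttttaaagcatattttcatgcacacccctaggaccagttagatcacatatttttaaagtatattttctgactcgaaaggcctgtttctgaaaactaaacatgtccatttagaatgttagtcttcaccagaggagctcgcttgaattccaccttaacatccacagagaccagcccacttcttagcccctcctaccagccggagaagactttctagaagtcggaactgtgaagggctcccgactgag
The 6 motifs searched on both strands were the cyclic AMP response half-site TGACG, the E-box CACGTG, the C/EBP palindrome TTGCGCAA, the TATA box TATAAA, the NF-kB consensus, and the E2F sites TTTGGCGC, TTTCCCGC, TTTGCCGC and TTTCGCGC. In the Ptgs2 window the palindrome began 69 bases before the start, and the half-site, on the minus strand and read as CGTCA above, overlapped the E-box at positions 14 and 17 after it. Over the 32851 promoter entries of the same length, 0.183% held the palindrome, 20.8% the half-site and 7.15% the E-box. The TATA box was in 13.6%, the E2F sites in 2.26% and the NF-kB consensus in 4.51%. None of the 6 was found in the Pla2g4a window. GC content was 59.3% for Ptgs2 and 45.3% for Pla2g4a, against a median of 52.7% over all entries. These matches describe the sequence only.

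Ptgs2 (probe set 104647_at) was the gene of the set with the widest range. Its deposited intensity was 2143 and 1609.9 in Rb-null serum-free cells and 2799 and 3057 in Rb-null serum cells. In wild-type cells it was 313 and 258 without serum and 358, 265 and 229 in serum. Every Rb-null array lay above every wild-type array, and the wild-type values lay close to the floor. After normalization the log2 difference between the lines was 2.62 (SE 0.22) without serum and 3.28 (SE 0.20) in serum. Without wild-type serum 1, the array with the highest wild-type value, the difference was 2.62 without serum and 3.47 in serum. Group means ran in the order Rb-null serum, Rb-null serum-free, wild-type serum-free and wild-type serum, and the wild-type groups overlapped. In such bulk samples, fewer cells expressing a gene and less RNA per cell cannot be told apart.

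Pla2g4a (99513_at), which supplies the substrate, showed a smaller difference of the same direction. It read 1680.1 and 1669.8 in Rb-null serum-free cells and 1583 and 1532 in Rb-null serum cells. Wild-type cells had 703 and 769 without serum and 1038, 755 and 646 in serum. The lines did not overlap, and wild-type serum 1 again held the highest wild-type value. The log2 difference was 1.02 (SE 0.17) without serum and 0.85 (SE 0.16) in serum, or 1.01 and 1.02 without wild-type serum 1. Its order differed from that of Ptgs2 in that the serum-free Rb-null arrays lay above the serum ones.

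**Figure D1:**
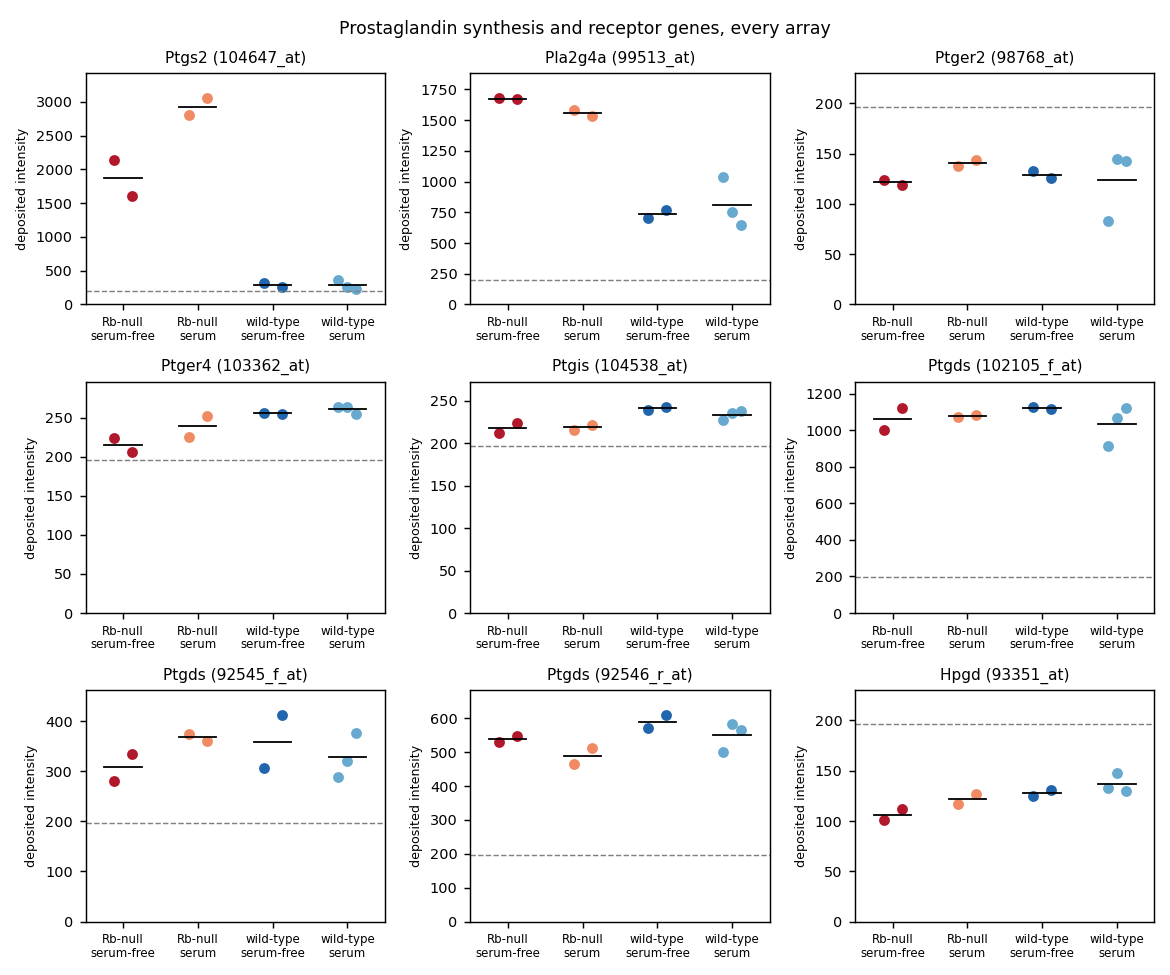
Deposited intensity (linear axis from 0) of the 9 probe sets on every array, with 1 point per array, a bar at each group mean and a dashed line at the floor of 197. Ptgs2 and Pla2g4a sit higher on all Rb-null arrays, while Ptger2 and Hpgd lie below the floor throughout.

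The receptor gene Ptger4 (103362_at) lay just above the floor and was slightly lower in Rb-null cells. It had 224 and 207 in Rb-null serum-free cells and 226 and 252.5 in Rb-null serum cells, against 257 and 256 in wild-type serum-free cells and 265, 264 and 255 in wild-type serum cells. The lines did not overlap. The log2 difference was -0.20 (SE 0.07) without serum and -0.12 (SE 0.07) in serum, or -0.20 and -0.09 without wild-type serum 1. Ptger2 (98768_at), the receptor that shares its coupling to cyclic AMP, was below the floor, at 119 to 144 on Rb-null arrays and 82.8 to 144 on wild-type arrays.

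Among the terminal enzymes, Ptgis (104538_at) was also low and nearly flat. Its intensities were 211 and 223 in Rb-null serum-free cells and 216 and 222 in Rb-null serum cells, against 238 and 243 in wild-type serum-free cells and 227, 235 and 237 in wild-type serum cells. Rb-null arrays lay below all wild-type arrays, with log2 differences of -0.11 (SE 0.06) without serum and -0.09 (SE 0.05) in serum, or -0.11 and -0.08 without wild-type serum 1.

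Ptgds was read by 3 probe sets, and in none did the lines separate. The brightest, 102105_f_at, had 1003 and 1121 in Rb-null serum-free cells and 1075 and 1085 in Rb-null serum cells, with 1130.05 and 1116 in wild-type serum-free cells and 915, 1065 and 1121 in wild-type serum cells. Its averaged log2 difference was -0.17 (SE 0.08), and on the values as deposited it was -0.01. The probe set 92546_r_at read 531 and 549 in Rb-null serum-free cells, 465 and 513 in Rb-null serum cells, 571 and 609.8 in wild-type serum-free cells and 501, 583 and 567 in wild-type serum cells. Its averaged difference was -0.22 (SE 0.07). The third, 92545_f_at, gave 281 and 335 in Rb-null serum-free cells, 375 and 360.1 in Rb-null serum cells, 307 and 412 in wild-type serum-free cells and 289, 321 and 376 in wild-type serum cells. Its averaged difference was -0.03 (SE 0.11), with -0.21 without serum and 0.15 in serum, so the 3 probe sets do not give 1 pattern. Without wild-type serum 1 the averaged differences were -0.22 for 102105_f_at, -0.25 for 92546_r_at and -0.07 for 92545_f_at. The suffix f marks probe sets that can also bind related transcripts. Hpgd (93351_at), the inactivating enzyme, lay below the floor at 101 to 127 on Rb-null arrays and 124 to 147 on wild-type arrays.

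Counted over the 7 tested probe sets, the lines did not overlap for 4, with Ptgs2 and Pla2g4a higher and Ptger4 and Ptgis lower in Rb-null cells. Over all 9686 probe sets tested, 23.1% did not overlap, 10.8% with Rb-null higher and 12.4% with Rb-null lower. Since the set was chosen with the line difference of Ptgs2 known, nothing is read from that count. The median averaged log2 difference was -0.10 over the 7 and -0.05 over all probe sets.

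Serum withdrawal was the comparison that could be tested, and 0 of the 7 probe sets passed an adjusted p of 0.05 by limma in the Rb-null line, 0 in the wild-type line and 0 for the difference between the lines. At an unadjusted p under 0.05 there were 1, 0 and 0. Over all probe sets 13.9% passed for withdrawal in the Rb-null line, 15.9% in the wild-type line and 0.929% for the difference between the lines. Ptgs2 accounted for the unadjusted call: both serum-free Rb-null arrays lay below both serum ones, with a log2 difference of -0.60 (SE 0.22, limma adjusted p = 0.114). The adjusted p was 0.0125 without wild-type serum 1, an array outside this contrast that enters through the normalization and the shared fit, and ran from 0.0125 to 0.452 over all alternatives. In wild-type cells the Ptgs2 difference was 0.05 (SE 0.20, limma adjusted p = 0.893) and the arrays overlapped. It was 0.25 without wild-type serum 1 (limma adjusted p = 0.289). The withdrawal difference in Rb-null minus that in wild-type cells was -0.65 (SE 0.30, limma adjusted p = 0.467), so a different response of the lines was not shown. That value was -0.85 without wild-type serum 1 (limma adjusted p = 0.0627).

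For Pla2g4a the withdrawal difference was 0.12 (SE 0.17, limma adjusted p = 0.781) in Rb-null and -0.04 (SE 0.16, limma adjusted p = 0.880) in wild-type cells. Without wild-type serum 1 the wild-type value was 0.13. Ptger4 differed by -0.09 (SE 0.07) in Rb-null and -0.01 (SE 0.07) in wild-type cells, and Ptgis by 0.04 (SE 0.06) in Rb-null and 0.06 (SE 0.05) in wild-type cells. The Ptgds probe sets ranged from -0.21 to 0.16 in Rb-null and from 0.15 to 0.22 in wild-type cells. With wild-type serum 1 left out the wild-type values were smaller, at 0.11 for 102105_f_at, 0.08 for 92545_f_at and 0.10 for 92546_r_at. Median differences over the 7 were -0.005 in Rb-null and 0.06 in wild-type cells, beside 0.0002 and 0.05 over all probe sets.

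**Figure D2:**
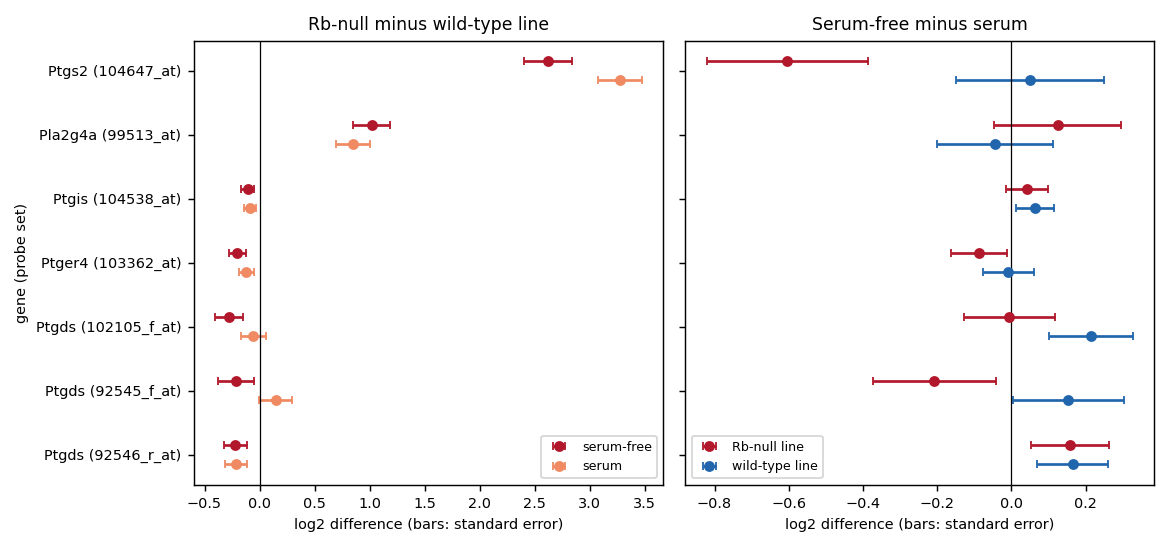
Log2 differences with standard errors for the 7 tested probe sets: the lines compared without and with serum (left), and serum-free minus serum in each line (right). Ptgs2 has line differences of 2.62 and 3.28 and a withdrawal difference of -0.60 in the Rb-null line, and no withdrawal difference passed the threshold.

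The rest of the pathway was read from 6 lists with 84 genes, of which 60 were named on the array and 50 tested. For the averaged line difference 8 were higher and 13 lower in Rb-null cells, or 42% of the 50, against 45.2% of all probe sets. Withdrawal changed 9 in Rb-null cells (6 higher and 3 lower, 18%, against 13.9% of all probe sets) and 7 in wild-type cells (6 higher and 1 lower, 14%, against 15.9%). With wild-type serum 1 left out the counts were 30 between the lines, 12 for withdrawal in Rb-null cells and 7 in wild-type cells. Calls over the whole array rose too: 6074, 2280 and 1963 of 9654 probe sets passed, against 4377, 1348 and 1536 of 9686. Of the 26 list results chosen by rule for naming, 0 lost their call without wild-type serum 1. Since calls rose across the array without it, this says little about how stable they are. Leaving out other arrays did lose calls: the Adcy6 and Ptges line calls were each lost for 8 of 9 arrays. With all arrays the shares of 42%, 18% and 14% lie near those of the whole array. Each gene is represented by its brightest probe set, including Pla2g12a and Celf2, whose probe sets disagreed in direction between the lines.

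Among other phospholipase A2 genes, 0 of 8 were higher and 4 were lower in Rb-null cells by their brightest probe sets, with a median of -0.21. The 4 include Pla2g12a, whose probe sets disagreed. Without wild-type serum 1 there were 7 lower, with the same median, and 3 on the values as deposited. Over all probe sets 2270 of 9686 were lower with all arrays, 3470 of 9654 without wild-type serum 1 and 1210 of 9703 as deposited. Pla2g7, which encodes the secreted platelet-activating factor acetylhydrolase, had 42.2 and 43.2 in Rb-null serum-free cells and 45.9 and 53.0 in Rb-null serum cells, all below the floor. It read 303 and 311 in wild-type serum-free cells and 220.2, 217 and 169 in wild-type serum cells. It was at least 1.30-fold lower in Rb-null cells (limma adjusted p = 0.000260) and rose by 0.57 on the log2 scale after withdrawal in wild-type cells (SE 0.06, limma adjusted p = 0.000320). Pla2g2c, a secreted phospholipase, was lower by a log2 difference of -0.22 (SE 0.06, limma adjusted p = 0.0154), a call lost when either Rb-null serum array was left out. For Pla2g12a, 104343_f_at was lower (-0.58, SE 0.07) and 104342_i_at higher (0.68, SE 0.07), both past the threshold. The counts take the brighter, 104343_f_at, but no direction is read for that gene.

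Of 7 other synthases and reductases, 1 was lower between the lines, against 1 higher and 4 lower without wild-type serum 1 and 0 on deposited or median-scaled values. The gene was Ptges, the inducible prostaglandin E synthase that acts after Ptgs2, at 468 and 489 in Rb-null serum-free cells and 435 and 453 in Rb-null serum cells. Wild-type cells had 504 and 508 without serum and 483, 528 and 487 in serum. The log2 difference was -0.16 (SE 0.06, limma adjusted p = 0.0452), and the call was lost in 12 of 16 alternatives, with an adjusted p of up to 0.144. Cbr1, the carbonyl reductase that can convert prostaglandin E2, rose after withdrawal in both lines, by 0.66 in Rb-null (SE 0.11, limma adjusted p = 0.00385) and 0.59 in wild-type cells (SE 0.10, limma adjusted p = 0.00322). Its intensities were 672 and 574 in Rb-null serum-free cells against 399.5 and 389 in Rb-null serum cells, and 577 and 648 in wild-type serum-free cells against 446, 419 and 423 in wild-type serum cells. The wild-type call missed the threshold without wild-type serum-free 2 (adjusted p = 0.0501).

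Of 10 other receptor and carrier genes named, 5 were tested, and the receptor genes Ptger3, Ptgfr, Ptgir and Ptgdr were below the floor on too many arrays. Tbxa2r, the thromboxane receptor gene, was lower in Rb-null cells by a log2 difference of -0.33 (SE 0.06, limma adjusted p = 0.00308). Ptgdr2, which encodes a prostaglandin D2 receptor, was lower by -0.31 (SE 0.07, limma adjusted p = 0.00480), though not past the threshold on the values as deposited (adjusted p = 0.0713). Pparg, a nuclear receptor for lipid ligands, was above the floor only on the Rb-null serum-free arrays, at 278 and 233, against 153 and 158 in Rb-null serum cells. Its wild-type values were 62.5 to 81.9. It was at least 1.33-fold higher after withdrawal in Rb-null cells (limma adjusted p = 0.00725), a call lost without either Rb-null serum array and with the wild-type arrays left out.

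Lipoxygenases and the leukotriene branch use the same arachidonic acid. Of 13 genes listed for them, 8 were named on the array and 6 tested. The tested genes include the lipoxygenase genes Alox12, Alox15 and Aloxe3, while Alox5 and Alox5ap were not among those named. The leukotriene branch was thus read only in part. Of the 6 tested genes, Ltc4s was higher and Ltb4r1 lower in Rb-null cells. Ltc4s (92401_at), the leukotriene C4 synthase gene, had 2352 and 2244 in Rb-null serum-free cells and 1179 and 1069 in Rb-null serum cells. It read 674 and 688 in wild-type serum-free cells and 498, 640.1 and 664 in wild-type serum cells, so neither the lines nor the media within either line overlapped. The log2 line difference was 1.20 (SE 0.09, limma adjusted p = 1.69e-05), and withdrawal in Rb-null cells gave 1.05 (SE 0.14, limma adjusted p = 0.00121). This rise stands beside the Ptgs2 values, which were lower without serum in the same cells. Ltb4r1, a leukotriene B4 receptor gene, differed by -0.30 (SE 0.07, limma adjusted p = 0.00813) and missed the threshold on deposited values (adjusted p = 0.152) and on median-scaled values.

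Among 15 tested regulators of Ptgs2 transcription or mRNA decay, 4 were higher and 4 lower in Rb-null cells, with a median of -0.01. The higher ones include Celf2, whose probe sets disagreed. Il1a, the interleukin-1 alpha gene and a known inducer of Ptgs2, had 523 and 501 in Rb-null serum-free cells and 820.2 and 767 in Rb-null serum cells. Wild-type cells had 252.5 and 249 without serum and 212, 230.25 and 230.4 in serum. Its line difference was 1.40 (SE 0.05, limma adjusted p = 1.25e-07), and it fell by 0.57 after withdrawal in Rb-null cells (SE 0.08, limma adjusted p = 0.00115). The group means of Il1a, and those of Cebpd given below, stood in the same order as those of Ptgs2. The wild-type groups overlapped for both Ptgs2 and Cebpd, so the order of those groups is not settled. The other tested regulators stood in other orders, and how many of all probe sets share this order was not counted. A link between Il1a, Cebpd and Ptgs2 was not tested.

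Cebpd, a C/EBP family transcription factor gene, read 255 and 256 in Rb-null serum-free cells and 361 and 384 in Rb-null serum cells, with 221 and 228 in wild-type serum-free cells and 220.4, 229 and 223 in wild-type serum cells. Its line difference was 0.48 (SE 0.04, limma adjusted p = 3.80e-05), lost when the floor was raised to percentile 40 (adjusted p = 0.102). Fos, which encodes an AP-1 subunit, had 261 and 252 in Rb-null serum-free cells and 199 and 169.8 in Rb-null serum cells, the last of these below the floor. In wild-type cells it read 1049 and 770.5 without serum and 315, 275 and 258 in serum. It was lower in Rb-null cells by a log2 difference of -1.18 (SE 0.10, limma adjusted p = 3.26e-05), and rose by 1.79 after withdrawal in wild-type cells (SE 0.14, limma adjusted p = 3.96e-05).

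Cebpb, another C/EBP factor gene, rose after withdrawal in both lines. It had 1549 and 1532 in Rb-null serum-free against 785.5 and 629 in Rb-null serum cells, and 1090.2 and 1147 in wild-type serum-free against 837, 764 and 728 in wild-type serum cells. The withdrawal differences were 1.11 in Rb-null (SE 0.11, limma adjusted p = 0.000238) and 0.63 in wild-type cells (SE 0.10, limma adjusted p = 0.00281). Egr1, an immediate-early factor gene, was lower in Rb-null cells by a log2 difference of -0.59 (SE 0.08, limma adjusted p = 0.000439). It also rose after withdrawal in both lines, by 0.92 in Rb-null (SE 0.12, limma adjusted p = 0.00101) and by 1.40 in wild-type cells (SE 0.11, limma adjusted p = 3.84e-05).

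The cyclic AMP response list stands downstream of Ptger2 and Ptger4. It also holds the adenylate cyclase genes Adcy3, Adcy6, Adcy7 and Adcy9, whose enzymes make cyclic AMP, so its counts are not of response genes alone. Of 9 genes tested, 2 were higher and 1 lower between the lines, and 0 passed for withdrawal in either line. The nuclear receptor gene Nr4a2 differed by 0.17 (SE 0.05, limma adjusted p = 0.0133), Nr4a1 of the same family by -0.25 (SE 0.08, limma adjusted p = 0.0339), and the adenylate cyclase gene Adcy6 by 0.19 (SE 0.07, limma adjusted p = 0.0422). The call was lost in 2 of 15 alternatives for Nr4a2, 10 of 16 for Nr4a1 and 9 of 16 for Adcy6.

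**Figure D3:**
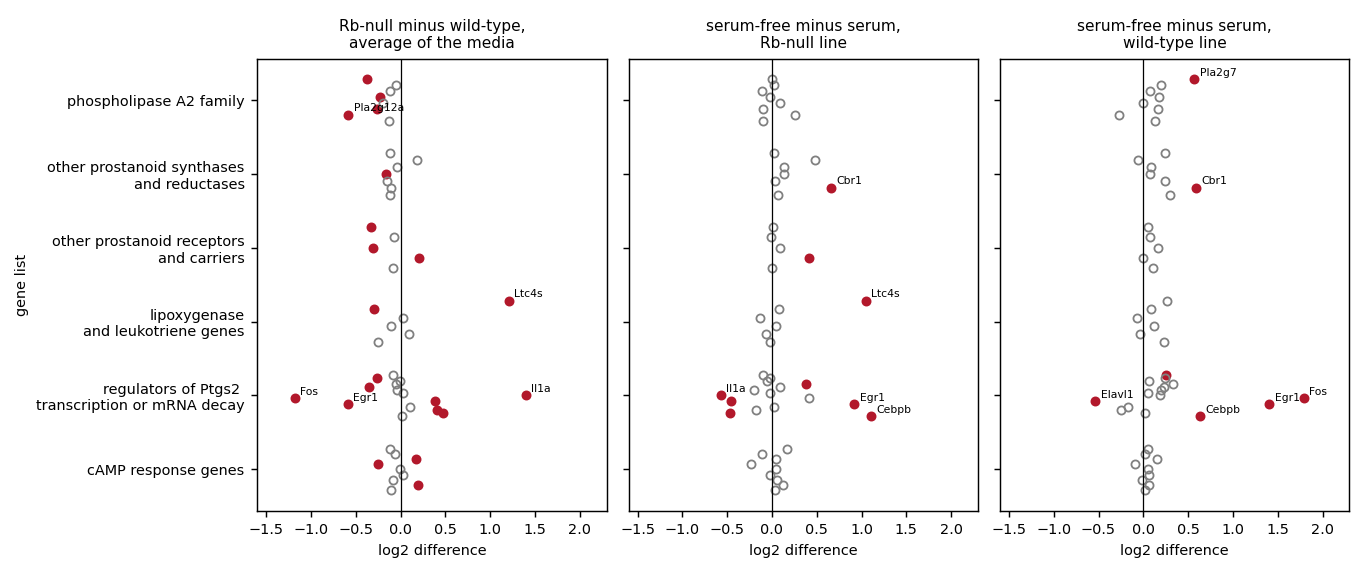
Log2 differences of the 50 tested genes of 6 pathway lists, 1 point per gene, for the averaged line difference and for serum withdrawal in each line. Filled points passed an adjusted p of 0.05, and those beyond 0.5 carry a symbol. Il1a (1.40) and Ltc4s (1.20) are highest and Fos (-1.18) lowest between the lines.

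The probe sets most like Ptgs2 over the 9 arrays, by the root mean square difference of mean-centred log2 values, were Cd200 (0.34), the chemokine gene Cxcl1 (0.43) and Igfbp3 (0.52). Their line differences in serum were 2.58, 2.51 and 2.60, beside 3.28 for Ptgs2. Without serum they were 2.32, 1.84 and 1.38, beside 2.62. Igfbp3 also differed by 0.62 after withdrawal in wild-type cells, where Ptgs2 differed by 0.05. Those most like Pla2g4a were Faap20 (0.038), Stam (0.083) and Rab18 (0.087), with line differences in serum of 0.86, 0.81 and 0.74, beside 0.85. Without serum these were 1.06, 0.92 and 0.88, beside 1.02. On every wild-type array Cd200 and Cxcl1 were at the floor. All 9 arrays share the lines and the normalization.

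Pla2g4a and Ptgs2 are consecutive protein-coding genes on chromosome 1 in the RefSeq order of GRCm38.p6. This was looked at after the values were seen. The nearest tested genes on the side of Pla2g4a were Uchl5, which differed between the lines by 0.70 (SE 0.07, limma adjusted p = 9.91e-05), Ro60 by -0.10 (SE 0.06, limma adjusted p = 0.212) and Aspm by 0.28 (SE 0.06, limma adjusted p = 0.00794). On the side of Ptgs2 they were Ivns1abp with 0.75 (SE 0.09, limma adjusted p = 0.000214), Rnf2 with 0.21, -0.12 and 0.00 on 3 probe sets, none past the threshold, and Edem3 with 0.39 (SE 0.08, limma adjusted p = 0.00487). Ivns1abp read 2112 and 2078 in Rb-null serum-free cells and 2866 and 2715 in Rb-null serum cells, against 1029 and 969 in wild-type serum-free cells and 2031, 1499 and 1351 in wild-type serum cells. In protein-coding gene steps from Pla2g4a these lie at -7 (Uchl5), -8 (Ro60), -19 (Aspm), 8 (Ivns1abp), 11 (Rnf2) and 13 (Edem3). Aspm differed in serum (0.55) and lay below the floor on all serum-free arrays. Uchl5, Aspm, Ivns1abp and Edem3 were thus higher, by less than Ptgs2, and Ro60 and Rnf2 did not pass. Over all 9686 probe sets, 2107 passed as higher and 2270 as lower between the lines. A shared cause was not tested. Genes in between were not measured above the floor or not named on the array.

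**Figure D4:**
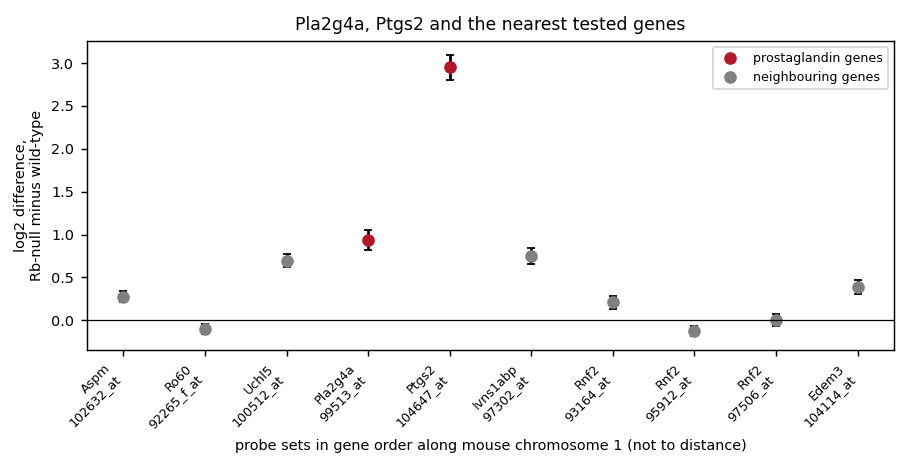
Averaged log2 difference, Rb-null minus wild-type, with standard errors, for Pla2g4a (0.93), Ptgs2 (2.95) and the probe sets of the nearest tested genes in gene order on chromosome 1. Distances are not drawn to scale, and Uchl5 (0.70) and Ivns1abp (0.75) are the highest neighbours.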

How the data were processed

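The authors deposited linear intensity values for 12422 probe sets on 9 arrays. Their software and scaling are not given in the labels or file headers used here. Values were quantile normalized between arrays, raised to a floor of 197 (percentile 25 of all values) and taken to log2. Probe sets above the floor on at least 2 arrays, 9686 in all, were tested. Names came from the platform annotation, updated through RefSeq's gene table. Contrasts came from limma 3.58.1 (R 4.3.3), in a fit of 4 group means with an intensity trend, two-sided, with Benjamini-Hochberg adjustment over all tested probe sets. The procedure was tested on simulated data. Genes and lists were chosen with earlier results of these data known. Besides the 8 genes, the text names up to 3 genes per list and contrast with the smallest adjusted p, and the 3 probe sets most like a gene whose group means span at least 1 on the log2 scale. Shared replicate numbers did not pair arrays: deviations correlated at -0.23 to 0.33. Alternatives changed the normalization, floor, filter, variance trend and arrays used.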

Additional observations from a re-analysis of the deposited data

Results flagged for a closer look

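Withdrawal differed between the lines for 4 of the 50 list genes by the interaction test, all with a lower value in Rb-null cells, beside 0.929% of all probe sets past the same threshold. The Fos interaction was -1.37 on the log2 scale (SE 0.21, limma adjusted p = 0.0203), from a withdrawal difference of 0.42 in Rb-null cells (SE 0.15, not past the threshold) and 1.79 in wild-type cells. The Il1a interaction was -0.76 (SE 0.10, limma adjusted p = 0.0140), with -0.57 in Rb-null and 0.18 in wild-type cells. The Cebpd interaction was -0.49 (SE 0.09, limma adjusted p = 0.0395), with -0.47 in Rb-null and 0.02 in wild-type cells. The Pla2g7 interaction was -0.57 (SE 0.09, limma adjusted p = 0.0275), but all Rb-null arrays lay below the floor. A fall there, or a rise that stayed below the floor, could thus not be measured. These calls were lost in 7 of 16 alternatives for Fos (adjusted p up to 0.129), 5 of 16 for Il1a (up to 0.117), 12 of 16 for Cebpd (up to 0.428) and 12 of 15 for Pla2g7 (up to 0.199).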

How the results depend on the processing

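In the Rb-null line 1 of the 7 prostaglandin probe sets, Ptgs2, passed for withdrawal with the floor at percentile 40 (limma adjusted p = 0.0140) and with the replicate number as a replicate block (0.0365). The floor at percentile 40 was 334, above the wild-type Ptgs2 values other than that of wild-type serum 1. Their spread, which enters the shared fit, was thereby cut. Leaving out 1 array gave 0 to 1, the 1 without wild-type serum 1. No prostaglandin probe set passed in the wild-type line or for the interaction under any alternative. The averaged line difference of Ptgs2 stayed between 2.68 and 3.05 and that of Pla2g4a between 0.86 and 1.08. For Ptgds 92545_f_at it ran from -0.15 to 0.09. List genes past the threshold between the lines numbered 13 to 30 with 1 array left out, against 21, and 13 was reached without Rb-null serum 1. Line calls over all probe sets were 3089 without that array and 6074 without wild-type serum 1, against 4377. Over all probe sets, Rb-null withdrawal calls were 2280 without wild-type serum 1, 497 without Rb-null serum 2 and 643 without Rb-null serum 1, against 1348. Wild-type withdrawal calls were 768 with only those arrays fitted, and 667 to 1963 with 1 array left out, against 1536. Interaction calls ran from 12 to 255 with 1 array left out and from 51 to 57 with the block, the lower floor or no variance trend, against 90. Higher calls were 48.1% of those between the lines, 69.3% on deposited and 60.7% on median-scaled values, and for wild-type withdrawal 41.7%, 25.7% and 36.2%. The causes were not tested. Ptger4 and Ptgis could not be tested at the higher floor. The fit with only the groups compared was run for withdrawal only. The number of arrays limits the precision, and Ptger4, Ptgis and wild-type Ptgs2 lay close to the floor.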

Other observations

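Other regulators of Ptgs2 past the threshold, named after their values were seen, moved in both directions. Elavl1, whose protein HuR is known to stabilise mRNAs with AU-rich elements, had 2487 and 2185 in Rb-null serum-free cells, 3313 and 3339.8 in Rb-null serum cells, 1503 and 1507 in wild-type serum-free cells and 2766, 2227 and 2089 in wild-type serum cells. It was higher in Rb-null cells by 0.38 (SE 0.07, limma adjusted p = 0.00177) and fell by 0.46 in Rb-null (SE 0.10, limma adjusted p = 0.0138) and by 0.53 in wild-type cells (SE 0.09, limma adjusted p = 0.00354) after withdrawal. Zfp36, whose protein promotes decay of such mRNAs, was lower in Rb-null cells by a log2 difference of -0.26 (SE 0.08, limma adjusted p = 0.0258). Rela, an NF-kB subunit gene, rose after withdrawal in Rb-null cells by 0.38 (SE 0.11, limma adjusted p = 0.0472), and Zfp36l1, of the Zfp36 family, in wild-type cells by 0.26 (SE 0.07, limma adjusted p = 0.0353). Wild-type Rela was also higher without serum, at a mean log2 value of 11.82 against 11.49 in serum. Those arrays did not overlap, though the difference did not pass the threshold. Nfkbia, which encodes an inhibitor of NF-kB, was lower on both probe sets (-0.35 with limma adjusted p = 0.00197, and -0.33 with limma adjusted p = 0.0374). The Celf2 probe sets disagreed, with 0.41 (limma adjusted p = 0.0250) and -0.19 (limma adjusted p = 0.115). With 1 array left out in turn, the call was lost for 3 of 9 arrays for Elavl1 withdrawal in Rb-null cells, 7 for Zfp36, 6 for Rela, 6 for Zfp36l1, 5 for Celf2 and 6 for the second Nfkbia probe set. The Rela withdrawal value in Rb-null cells was 0.25 without Rb-null serum 2.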
